A study of Mus musculus with 20 samples.

Results

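The mouse oocyte was compared directly with the 2-cell embryo, so that each transcript is described by its net change over the 1-cell stage that lies between them. The comparison used 8 of the 20 expression arrays in the series, 4 titled as oocyte and 4 as 2-cell embryo, and 22626 of the 22690 probe sets on the array, which leaves out the 64 control probe sets of the manufacturer. Every difference is the 2-cell value minus the oocyte value. Both groups were mouse total RNA that went through 2 rounds of amplification by in vitro transcription, and no treatment or genetic change is labelled in either. The labels give no strain, age, meiotic stage, way of fertilization, hour of collection or number of cells. They also do not say whether the 4 arrays of a stage came from separate collections, so p-values measure only the spread between these arrays, which may be technical.

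A fully grown oocyte stops transcription before it matures and carries a store of maternal mRNA into the embryo. Much of that store is kept translationally silent with short poly(A) tails, and it is removed in waves during maturation and after fertilization. The mouse embryo starts transcription weakly at the end of the 1-cell stage and strongly at the 2-cell stage, a step called zygotic genome activation, after which it depends on its own transcripts. The comparison of oocyte with 2-cell embryo therefore spans both the removal of maternal mRNA and the first large group of embryonic transcripts.

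The stage markers Zp3 and Zfp352 went with the titles, whereas the oocyte markers Bmp15 and Oosp1 and the 2-cell marker Eif1a, given below, did not pass the test. Zp3, which encodes the sperm-binding glycoprotein of the zona pellucida, the coat around the oocyte, had intensities of 5830.4, 4962, 5395 and 5768 in the 4 oocyte arrays and 392, 382, 579 and 519 in the 4 2-cell arrays. Zfp352, a zinc-finger gene known as a marker of the 2-cell stage, had intensities of 29.6, 7.1, 12.6 and 19.8 in oocytes and 2417, 2063, 1529.7 and 1968 at the 2-cell stage. No value of one stage overlapped those of the other for either gene. Zscan4d, another such marker, had no probe set that names it alone. Intensities are in arbitrary units, linear, and scaled by the authors to a common trimmed mean, so a value is a share of the array's signal. The filter intensity was 32.9, and lower values, such as those of Zfp352 in oocytes, are near the bottom of the scale.

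Arrays of 1 stage correlated at 0.965 to 0.973 among oocytes and at 0.954 to 0.965 among 2-cell embryos, and arrays of different stages at 0.816 to 0.855, across probe sets, which are not independent replicates. Oocyte array 4 was the dimmest of the 8, with 52.4% of probe sets above the filter against 59.4 to 61.1% on the other oocyte arrays and a median intensity of 36.5 against 47.7 to 50.9. The share of probe sets above the filter was 58.3 ± 4.00% in oocytes and 62.8 ± 1.28% at the 2-cell stage (SD, n = 4; exact permutation test, two-sided, p = 0.0286, the smallest that 4 against 4 arrays allow, 0.0449 after adjustment over 11 measures). The 3' to 5' signal ratio of the beta-actin controls, a measure of RNA length, was 4.74 ± 0.364 and 4.63 ± 0.622. That of the Gapdh controls was 4.70 ± 1.26 in oocytes and 5.43 ± 0.603 at the 2-cell stage. Oocyte array 2 stood apart in it, at 2.82 against 5.22 to 5.39 on the other oocyte arrays. The bacteriophage cre hybridization control read 6202 ± 961 in oocytes and 10364 ± 1890.1 at the 2-cell stage (exact permutation test, p = 0.0286). Scaling the arrays to such hybridization controls instead of the common mean lowered the 2-cell stage against the oocyte throughout, from a median change of 0.04 to -0.67 over all tested probe sets. Counts of higher and lower members are therefore given under both scalings for each gene list. The 1-cell intensities quoted below are under the authors' scaling only, and cre read 12079.5 ± 2618 at that stage. The amount of amplified RNA put on an array, the number of cells and the RNA per cell cannot be told apart in these pooled samples. The scaling to controls is therefore no measure of RNA content per cell. Loss of a transcript and loss of its poly(A) tail cannot be told apart either, since the labels do not give the amplification primer.

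More than 50% of the probe sets that passed the filter differed between oocyte and 2-cell embryo. Changes were about equal in number each way under the authors' scaling and mostly downward under that to the hybridization controls. Of 14509 probe sets tested with limma, 7650 were called (52.7%, Benjamini-Hochberg adjusted p under 0.05), 3987 higher (27.5%) and 3663 lower (25.2%) at the 2-cell stage. At least 2-fold changes numbered 2332 higher (16.1%) and 2058 lower (14.2%). Larger steps were less even: 312 probe sets rose and 92 fell at least 8-fold, and 50 rose and 2 fell at least 32-fold. After scaling to the hybridization controls 164 rose and 323 fell at least 8-fold, and 21 rose and 7 fell at least 32-fold. The 4 oocyte and 4 2-cell values did not overlap for 7020 probe sets (48.4%). By gene, with the brightest probe set standing for each of 8925 genes, 4718 were called (52.9%), 2252 higher (25.2%) and 2466 lower (27.6%). Scaling to the hybridization controls gave 1451 probe sets called higher and 6859 lower, and 795 genes (8.91%) were called higher under both scalings. Folds are on the scale of log2(intensity + 12.15), which understates the change of dim genes.

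**Figure D1:**
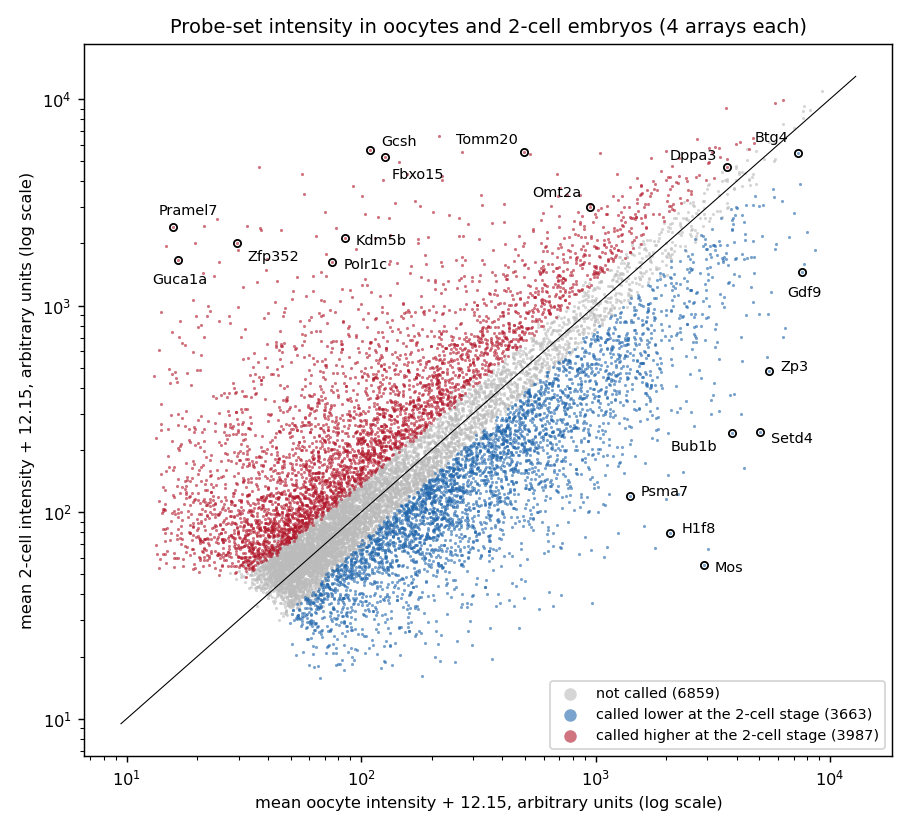
Mean intensity plus 12.15 of each tested probe set in oocytes (x axis) and 2-cell embryos (y axis), both on log scales and in arbitrary units, with the diagonal of equal values. Red points (3987) were called higher at the 2-cell stage, blue points (3663) lower and grey points were not called; Mos and H1f8 lie lowest of the named oocyte transcripts, and Pramel7, Guca1a and Zfp352 rise from the bottom of the oocyte scale.

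Which was more frequent, a rise from below the filter or a fall to below it, turned with the scaling. As deposited, for 1452 probe sets the 2-cell mean was above the filter intensity and the oocyte mean below it, and 1044 of these were called higher. The converse held for 751 probe sets, of which 455 were called lower. Without oocyte array 4, the dim array, these counts were 1247 with 956 called and 779 with 454 called. After scaling to the hybridization controls they were 673 with 525 called higher and 1954 with 1228 called lower.

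The genes of the zona pellucida and of secreted oocyte factors fell or were not called. Of 10 members tested, 0 rose and 6 fell (0 and 10 after scaling to the hybridization controls), and the group median, the median of the members' log2 changes, was -1.50. Over all genes tested 25.2% rose and 27.6% fell, with a median of -0.01, shares that serve as the background for each group under the authors' scaling. For the counts after scaling to the hybridization controls the background is mostly downward. There 1451 of all 14509 probe sets tested were called higher and 6859 lower, with a median of -0.67. Zp1, the crosslinking glycoprotein of the zona, fell by 3.76 ± 0.15 on the log2 scale (SE; adjusted p = 1.3e-11), from 2032 ± 217 to 139 ± 19.5 (intensity, SD, n = 4). Zp2, the glycoprotein cleaved after fertilization, read 5259, 5633, 4827 and 5858 in oocytes and 551, 414, 816 and 434 at the 2-cell stage and fell by 3.30 ± 0.19. Zp3 fell by 3.54 ± 0.16 (adjusted p = 2.93e-11). The 3 zona transcripts thus lost most of their signal, yet all 4 2-cell arrays still read Zp2 and Zp3 well above the filter intensity.

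Gdf9, a growth factor that the oocyte secretes to the follicle, had intensities of 7662, 7106, 7027 and 8566 in oocytes. It read 1685, 1484, 1379.8 and 1242 at the 2-cell stage and fell by 2.39 ± 0.14 (adjusted p = 5.7e-10). Bmp15, its partner in the follicle, did not pass the test, with 794, 869, 678 and 642 in oocytes, 719, 601, 270.4 and 534 at the 2-cell stage and a log2 change of -0.55 ± 0.24 (adjusted p = 0.0601). The 2 sets of Bmp15 values overlapped, and without 2-cell array 1 the fall was called (-0.72, adjusted p = 0.0130). Fgf8, a fibroblast growth factor made by the oocyte, fell by 3.07 on the log2 scale, and Oosp1, an oocyte-secreted protein, had a log2 change of 0.032 and did not pass the test (adjusted p = 0.864).

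Among transcription factors and other oocyte-specific genes, most fell and a few rose. Of 21 tested, 12 fell and 4 rose (7 without 2-cell array 3), for a group median of -0.96. After scaling to the hybridization controls 15 fell and 2 rose. H1f8, the oocyte linker histone, had the largest fall of the list. It read 1984, 2133, 1843 and 2345 in oocytes and 65.7, 50.4, 87.1 and 65 at the 2-cell stage and fell by 4.73 ± 0.17 on the log2 scale (adjusted p = 2.96e-12). Nobox, a homeodomain factor of the growing oocyte, fell by 2.24 ± 0.18, Lhx8, a LIM homeodomain factor, by 1.49, and Figla, the E-box factor that drives the zona genes, by 1.33. Kit, the receptor of the follicle's Kit ligand, fell by 0.96.

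Obox3 and the Omt2 genes moved the other way. Obox3, a homeobox gene of the oocyte and embryo, read 47.2, 78.6, 65 and 24.6 in oocytes and 993, 1017, 744 and 898 at the 2-cell stage, a rise of 3.88 ± 0.24 (adjusted p = 1.3e-09), while its relative Obox2 fell by 1.88. Omt2a, an oocyte maturation gene, rose from 901, 1033, 931 and 876 to 3245, 2891, 3178 and 2578, or 1.65 ± 0.14, and Omt2b rose by 1.03 ± 0.14. Omt2b was no longer called after scaling to the hybridization controls (log2 change 0.20), whereas Omt2a still was (0.83). Both Omt2 transcripts were already higher at the 1-cell stage, at 2121 ± 150.4 for Omt2a and 4265 ± 506 for Omt2b, and these near-identical genes may share signal. Tcl1b4, 1 of 4 tested Tcl1 family genes, was called higher (0.65), and Tcl1, Tcl1b1 and Tcl1b3 did not pass the test.

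Figla binds E-boxes, and the hexamer CAGGTG is one such sequence. In promoters of 250 bases before to 50 after the start (RefSeq, GRCm38.p6), CAGGTG on either strand was present in 11 of the 19 oocyte-specific genes that had a promoter in the table, or 57.9%, beside 17.8% of all 7250 tested genes with a promoter. The related genes Tcl1, Tcl1b1, Tcl1b3 and Tcl1b4 are among these 11. The general E-box CANNTG was in 14 of the 19 (73.7%), beside 63.0% of all tested genes with a promoter. Such a match is a description of letters, without evidence of binding, and 12 motifs were searched. The 4 promoters given here were picked after their values were seen, because they hold the hexamer and their transcripts went in opposite directions: Zp3, H1f8 and Nobox fell and Omt2a rose. Each line gives the 250 bases before the start, 5' to 3' on the gene's strand, with CAGGTG or its reverse complement in capitals. Other E-boxes are not marked. Zp3 is at chr5:135979855-135980104 on the plus strand, H1f8 at chr6:115944681-115944930 on the plus strand, Nobox at chr6:43309555-43309804 on the minus strand and Omt2a at chr9:78314049-78314298 on the minus strand.
Zp3: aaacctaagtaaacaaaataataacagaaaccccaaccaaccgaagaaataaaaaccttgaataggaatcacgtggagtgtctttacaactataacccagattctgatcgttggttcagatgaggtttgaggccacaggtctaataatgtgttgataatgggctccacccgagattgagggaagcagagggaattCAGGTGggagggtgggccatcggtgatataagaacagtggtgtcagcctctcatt
H1f8: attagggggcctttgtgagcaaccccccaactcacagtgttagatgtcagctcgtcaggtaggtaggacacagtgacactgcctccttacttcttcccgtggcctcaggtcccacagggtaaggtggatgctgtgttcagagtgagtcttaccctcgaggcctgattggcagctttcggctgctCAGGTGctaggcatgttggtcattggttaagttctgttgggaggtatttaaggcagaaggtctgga
Nobox: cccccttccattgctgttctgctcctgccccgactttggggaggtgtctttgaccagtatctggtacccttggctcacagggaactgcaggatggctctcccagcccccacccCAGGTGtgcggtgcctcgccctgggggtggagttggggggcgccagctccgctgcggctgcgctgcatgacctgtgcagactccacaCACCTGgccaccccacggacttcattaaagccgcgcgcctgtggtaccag
Omt2a: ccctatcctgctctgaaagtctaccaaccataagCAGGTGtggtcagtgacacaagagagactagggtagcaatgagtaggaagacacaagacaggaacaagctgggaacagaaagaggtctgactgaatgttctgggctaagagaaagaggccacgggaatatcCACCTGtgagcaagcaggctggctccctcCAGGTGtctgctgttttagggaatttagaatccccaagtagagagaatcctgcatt
The match lay 55 bases before the start in Zp3 and 66 bases in H1f8, the Nobox window held 2 matches and the Omt2a window 3.

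Maternal-effect genes, whose oocyte product the embryo needs, split. Of 17 tested, 8 fell and 5 rose, and the group median was -0.18. With the scaling to hybridization controls 12 fell and 0 rose. Nlrp5, a core member of the subcortical maternal complex, fell by 2.46 ± 0.17, from 5666, 4699, 4062 and 5400.3 to 1098, 719, 1025 and 754 (adjusted p = 4e-09). Tle6, another member of that complex, fell by 2.99 ± 0.18, from 4197 ± 633 to 525 ± 135. Zfp57, which guards imprinted DNA methylation, read 239 ± 77.8 in oocytes, 661 ± 305 at the 1-cell stage and 34.7 ± 10.8 at the 2-cell stage, so its net fall of 2.40 ± 0.24 passes over a higher level in between. Dppa3, which protects the maternal genome from loss of methylation, read 3326, 3842, 3434 and 3897 in oocytes and 5186, 4309, 4680.1 and 4562 at the 2-cell stage. Its rise of 0.37 ± 0.13 (adjusted p = 0.0203) was smaller than the shift between scalings and turned to -0.46 after scaling to the hybridization controls. The call was also lost without oocyte array 1 or 3 or without 2-cell array 1. Of the other 4 that rose, Ctcf, the insulator protein, rose by 1.21 ± 0.18, Smarca4, the remodelling ATPase, by 1.16 ± 0.20, Pms2, a mismatch repair protein, by 1.11 ± 0.22 and Ube2a, a ubiquitin-conjugating enzyme, by 0.67 ± 0.16.

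**Figure D2:**
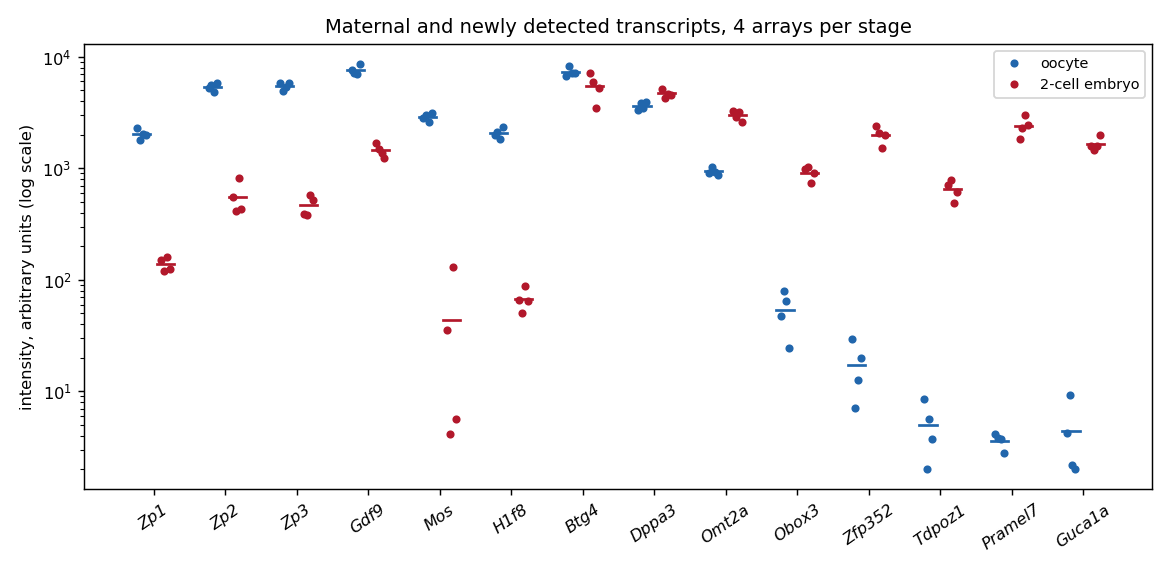
Intensity (log axis, arbitrary units) of 14 genes on each of the 4 oocyte arrays (blue points) and the 4 2-cell arrays (red points), with short lines at the means. Zp1 to H1f8 sit higher in oocytes, the Btg4 values overlap between stages, and Obox3 to Guca1a sit far higher in all 4 2-cell arrays.

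Mos, the kinase that holds the oocyte in metaphase, had the largest fall of all named genes. Its intensities were 2838, 3013, 2588 and 3099 in oocytes and 35.2, 4.1, 129 and 5.7 at the 2-cell stage and fell by 6.27 ± 0.47 on the log2 scale (adjusted p = 1.34e-08), or by 6.91 without 2-cell array 3. On 2 of the 4 2-cell arrays it read near the bottom of the scale. Bub1b, a spindle checkpoint kinase, fell by 4.02 ± 0.17, from 3677, 3917, 3803 and 3883 to 227, 199, 318 and 174 (adjusted p = 1.78e-11). It had read 4784 ± 1131 at the 1-cell stage, so its loss lay after that stage, while Mos was already down to 1065 ± 404 there.

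The wider group of meiotic and M-phase genes changed in both directions. Of 46 tested, 19 fell and 13 rose, for a group median of -0.24 (-0.11 without 2-cell array 3). Under the other scaling 30 fell and 5 rose. The mitotic kinases Plk1 (-1.17), Bub1 (-1.24), Ttk (-1.06) and Aurkc (-1.002) fell, and of the B-type cyclins Ccnb3 (-1.94) and Ccnb2 (-1.31) fell. Ccne1, the cyclin of the G1 to S step, rose from 64.6, 37.9, 28.2 and 40.7 to 609.8, 726, 906 and 1069, or 3.94 ± 0.22 (adjusted p = 4.29e-10). Cdc25c, a phosphatase that activates Cdk1, rose by 2.61 ± 0.19 and Ccna2, the S-phase cyclin, by 1.98 ± 0.14. Aurka had a log2 change of -0.27 and did not pass the test (adjusted p = 0.172).

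The other large falls came from genes with varied roles. The 15 largest falls, ranked with this added constant among genes with established symbols, ran from Mos to Bub1b. Tbc1d14, a regulator of Rab GTPases in autophagy, fell by 5.61 ± 0.23, from 3018 ± 341 to 53.9 ± 28.1, and 2 of its 3 probe sets carried that call. Setd4, a lysine methyltransferase, fell by 4.41 ± 0.20, from 4523, 5163, 4448 and 5989 to 337, 163, 242 and 188. Gja4, the connexin that couples the oocyte to its follicle cells, fell by 4.13 ± 0.19, from 1984 ± 275 to 103 ± 28.6. Cited2, a transcriptional co-regulator, fell by 4.25 ± 0.21, Glrx, glutaredoxin, by 4.20 ± 0.17, Gsta4, a glutathione transferase, by 4.76 ± 0.20, and Crabp2, which carries retinoic acid, by 4.05 ± 0.16. Dpcd, Mocos, Myh2, Zfp61 and Slc35b3 completed the 15, with falls between 4.09 and 4.93. For each of the 15 the values of both stages did not overlap, which the naming rule required.

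Regulators of mRNA storage and decay included both lost and gained transcripts. Of 45 tested, 13 fell and 17 rose, and the group median was 0.25; 5 were called higher and 22 lower after scaling to the hybridization controls. Cpeb1, which binds the cytoplasmic polyadenylation element and keeps maternal mRNA silent, fell by 3.35 ± 0.15, from 1179, 944, 976 and 959 to 95.8, 89.6, 84.8 and 81.9 (adjusted p = 4.37e-11). Dazl, an RNA-binding protein of germ cells, fell by 1.58, Papolg, a poly(A) polymerase, fell by 3.09 ± 0.17 and Edc4, a scaffold of decapping, by 2.54 ± 0.17. Pabpc1, the general cytoplasmic poly(A)-binding protein, rose from 390.3, 178, 246 and 221 to 1680.1, 2028, 2509 and 2401, or 3.04 ± 0.21 (adjusted p = 4.75e-09). Its relative Pabpc4 rose by 1.98 ± 0.14, and Igf2bp1, an mRNA-binding protein, by 2.30 ± 0.26. Btg4, which recruits the CCR4-NOT deadenylase to maternal mRNA, read 6739, 8202, 7091 and 7147 in oocytes and 7152, 5978, 3468 and 5282 at the 2-cell stage. Its fall of 0.46 ± 0.18 had an adjusted p of 0.0419, its values overlapped between stages, and the call was lost in a fit of all 5 stages and without any single array except 2-cell array 1 or 2 (log2 change -0.26 without 2-cell array 3). Of the deadenylase subunits, Cnot6 (0.89) and Cnot8 (0.45) rose, Cnot3 (-1.03) fell, and Cnot7 (0.032) and Cnot6l (-0.05) did not pass the test.

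Chromatin enzymes changed in both directions. Of 45 tested, 14 rose and 12 fell, for a group median of 0.15 that turned to -0.62 after scaling to the hybridization controls, with 9 called higher and 21 lower. Dnmt1, the maintenance DNA methyltransferase, fell by 3.43 ± 0.19, from 3998, 3318, 3715 and 4576 to 329, 339, 527 and 253 (adjusted p = 4.54e-10). Its partner Uhrf1 fell by 0.94 and Dnmt3a, a de novo methyltransferase, by 0.95. Kdm5b, which removes methyl groups from histone H3 lysine 4, rose from 72.5, 80.1, 66.1 and 74.7 to 1849.9, 1983, 2363 and 2236, or 4.63 ± 0.15 (adjusted p = 1.12e-12). Other demethylases that rose were Kdm3a (2.87), Kdm5a (2.40) and Kdm4c (2.16). Hdac1, a histone deacetylase, rose by 2.64, and the deacetylases Hdac2 and Hdac3 did not pass the test (log2 changes -0.14 and 0.048). Among arginine methyltransferases Prmt6 rose by 3.70 ± 0.43 and Prmt7 fell by 3.33 ± 0.24. Kat2b, a histone acetyltransferase, rose from 9.18 ± 6.62 to 241 ± 81.1, or 3.57 ± 0.28.

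Genes named for activation at the 2-cell stage were mostly higher there, several of them from the bottom of the oocyte scale. Of 20 tested members of 40 listed, 15 rose and 3 fell, and the group median was 2.78 (1.995 after scaling to the hybridization controls, where 14 were called higher and 4 lower). The list was written with earlier results of these arrays known, and a gene silent in oocytes passes the filter only through its 2-cell values, so this count is a description. Pramel7, a leucine-rich repeat gene of early embryos, had the largest rise of all named genes, from 4.1, 3.8, 3.7 and 2.8 to 1835, 2275, 2983 and 2433, or 7.23 ± 0.18 on the log2 scale (adjusted p = 8.13e-14). Crxos, a homeobox gene, rose from 12.1 ± 7.18 to 2607 ± 667, or 6.79 ± 0.24. Zfp352 rose by 6.13 ± 0.23 and Tdpoz1, a MATH and BTB domain gene of the early embryo, by 5.26 ± 0.20, from 8.6, 2, 5.7 and 3.7 to 710.1, 782, 486 and 615. Spz1, a transcription factor first known from sperm development, rose from 3.5 ± 1.29 to 729.8 ± 179, or 5.54 ± 0.20.

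The heat shock gene Hspa1b, an early mark of genome activation, rose from 80.4, 99.3, 118 and 80.2 to 1081, 964, 786 and 795, or 3.11 ± 0.18 (adjusted p = 4.95e-10), and its near-identical neighbour Hspa1a by 1.90. The probe sets of such copies can share signal, which holds for Tdpoz and Tcstv genes too. Tcstv3, a gene of the 2-cell stage, rose by 2.66 ± 0.25. The constitutive relative Hspa8 fell by 1.40 ± 0.22, from 4297 ± 1012 to 1662 ± 614, although it had read 953 ± 224 at the 1-cell stage and so was higher at the 2-cell stage than just before. Arg2, mitochondrial arginase, and Cbx1, a heterochromatin protein, were the other members that fell, by 1.87 ± 0.18 and 1.35 ± 0.18. Eif1a, a translation initiation factor gene known for its 2-cell peak, did not pass the test, with 91.8, 67.3, 71.9 and 34.7 in oocytes, 96.1, 94.4, 70.5 and 104 at the 2-cell stage and an adjusted p of 0.134. The values of the stages overlapped.

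The sequence TAATCC is bound by OBOX and OTX homeodomain proteins, and members of the OBOX family were themselves in the comparison. The hexamer on either strand was in 5 of the 13 list members with a promoter in the table (38.5%), beside 5.50% of all 7250 tested genes with a promoter. Of these 5, Zfp352, Tdpoz1, Obox3 and Sp110 rose and Cbx1 fell. Among all genes called higher the share was 6.69%, and among those called lower 5.21%. It was in 10 of 82 promoters (12.2%) of the 100 genes with the largest rises and in 4 of 76 (5.26%) of the 100 with the largest falls. The medians of the CpG observed to expected ratio were 0.20 for the list and 0.76 for all tested genes. Of the promoters with the hexamer, 3 are given, picked after their values were seen because their transcripts rose from the bottom of the scale, each as the 250 bases before the start, 5' to 3' on the gene's strand, with TAATCC or its reverse complement in capitals. Zfp352 is at chr4:90218570-90218819 on the plus strand, Tdpoz1 at chr3:93676284-93676533 on the minus strand and Guca1a at chr17:47400607-47400856 on the minus strand.
Zfp352: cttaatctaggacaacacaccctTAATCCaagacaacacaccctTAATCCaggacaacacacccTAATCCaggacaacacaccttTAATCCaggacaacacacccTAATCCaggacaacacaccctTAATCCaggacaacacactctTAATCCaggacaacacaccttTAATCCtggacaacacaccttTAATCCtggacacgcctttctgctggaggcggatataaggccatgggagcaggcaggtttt
Tdpoz1: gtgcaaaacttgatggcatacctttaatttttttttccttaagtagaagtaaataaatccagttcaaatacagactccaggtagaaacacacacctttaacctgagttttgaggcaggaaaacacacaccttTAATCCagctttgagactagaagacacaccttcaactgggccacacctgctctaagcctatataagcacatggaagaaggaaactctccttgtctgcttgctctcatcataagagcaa
Guca1a: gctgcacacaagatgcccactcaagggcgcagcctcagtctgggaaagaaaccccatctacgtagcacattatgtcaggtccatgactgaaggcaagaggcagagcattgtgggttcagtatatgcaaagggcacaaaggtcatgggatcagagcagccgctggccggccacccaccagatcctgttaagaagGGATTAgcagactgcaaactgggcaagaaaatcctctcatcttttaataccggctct
In Zfp352 the hexamer occurred 9 times as part of a tandem repeat, the first 227 and the last 61 bases before the start. Tdpoz1 and Guca1a each held 1 match, 118 and 57 bases before the start. Matches of these letters were not tested for binding, and Pramel7, Crxos and Spz1, which rose as far, had none in the window searched.

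The largest rises outside that list included metabolic enzymes and regulators. Prps1, which makes the ribose donor of nucleotide synthesis, rose from 21.1, 33, 22.9 and 4.6 to 2277, 2205, 2834 and 2326, or 6.30 ± 0.24 (adjusted p = 6.88e-12). Ppat, the first committed enzyme of purine synthesis, which uses that donor, rose from 4.72 ± 2.39 to 826 ± 92.8, or 5.64 ± 0.18. Psat1, an aminotransferase of serine synthesis, rose by 5.52 ± 0.24, and Gcsh, the carrier protein of glycine cleavage, reached 4734, 5722, 6758 and 5439 from 126, 97.8, 93.4 and 70.4, a rise of 5.71 ± 0.17. Pdxk, the kinase that makes the active form of pyridoxal, rose from 7.35 ± 6.27 to 1995 ± 764, or 6.66 ± 0.26. These genes were not a list of their own, so no count is given for a pathway.

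Guca1a, an activator of guanylate cyclase known from photoreceptors, rose from 4.2, 9.2, 2.2 and 2 to 1569, 1447, 1569.9 and 1991, or 6.65 ± 0.19 (adjusted p = 2.53e-13). Gabpa, an ETS transcription factor, rose from 12.6 ± 4.85 to 1612 ± 53.9, or 6.06 ± 0.18. Ctsc, the lysosomal protease cathepsin C, rose by 6.01 ± 0.19, Selenos, a selenoprotein of endoplasmic reticulum quality control, by 5.95 ± 0.18, Ankrd10 by 5.87 ± 0.19 and Ppp2cb, a catalytic subunit of protein phosphatase 2A, by 5.49 ± 0.18. All 15 largest rises were called in each of 21 settings of the fit, as were the 15 largest falls.

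Transcripts of later cell types were already higher in part. Of 25 tested markers of the inner cell mass and of pluripotency, 14 rose and 3 fell, for a group median of 0.98; 8 were called higher and 7 lower after scaling to the hybridization controls. Fbxo15, an F-box gene of embryonic stem cells, rose from 104, 114, 121 and 116 to 4406, 4865, 5849 and 5775, or 5.37 ± 0.15 (adjusted p = 2.4e-13). Klf4, a Kruppel-like factor used in reprogramming, rose by 3.62 ± 0.18, from 24.7 ± 5.65 to 439.6 ± 59.5, and Klf5 by 1.99. Dppa4 rose by 2.90 ± 0.15, Zfp42 by 2.38, and Sox2, a partner of Pou5f1, by 1.19. Pou5f1 itself did not pass the test, with 220.3, 229.6, 261 and 302 in oocytes, 422, 295, 259.7 and 323 at the 2-cell stage and a log2 change of 0.33 ± 0.18 (adjusted p = 0.135). Esrrb (-0.21) and Lin28a (-0.25) did not pass it either. Stat3 fell by 1.12 ± 0.17 and Sall4 by 0.81 ± 0.15.

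Markers of trophectoderm and primitive endoderm, the outer and the inner extra-embryonic lineages of the blastocyst, gave 6 rises and 7 falls among 25 tested and a median log2 change of 0.14 (-0.52 after scaling to the hybridization controls, with 3 rises and 9 falls). Krt18, a keratin of simple epithelium, rose by 2.29 ± 0.25 but only to 73.4 ± 21.5. Tead4, listed with the earlier group and needed for trophectoderm, rose by 2.84. Lamb1, a laminin chain, fell by 3.08 ± 0.16, from 2364, 2359, 2569 and 2865 to 306, 324, 331 and 211, and Gata3 by 1.37 ± 0.34. Gata6 (-0.046) and Eomes (0.39) did not pass the test.

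Ribosome assembly genes were the group of cell machinery with the most rises. Of 83 tested genes of ribosome biogenesis and RNA polymerase I, 46 rose and 18 fell, and the group median was 0.57. Polr1c, a subunit shared by RNA polymerases I and III, rose from 57.2, 69, 40 and 86.8 to 1193, 1582, 2378 and 1330.2, or 4.42 ± 0.23 (adjusted p = 1.86e-10). Surf6 and Rrp9, both nucleolar processing factors, rose by 3.94 ± 0.24 and 3.84 ± 0.21, Ubtf, the polymerase I activator, by 1.64, and Fbl, fibrillarin, by 1.70. Exosome subunits were among the falls, such as Exosc4 (-2.26) and Exosc7 (-1.05). After scaling to the hybridization controls 21 were called higher and 32 lower, with a median of -0.23. The median of the group was higher than that of all probe sets under either scaling.

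The ribosomal protein genes were low at the 1-cell stage, between the 2 stages compared. The median intensity of the 48 tested genes was 967 ± 147 in oocytes, 185 ± 50.7 at the 1-cell stage and 1276 ± 225 at the 2-cell stage. Between oocyte and 2-cell embryo 19 rose and 6 fell, for a group median of 0.31, whereas after scaling to the hybridization controls 3 rose and 20 fell, with a median of -0.50. Rps25 rose from 41.1 ± 15.2 to 564 ± 105, or 3.47 ± 0.23, and Rps3a1 by 1.44 ± 0.16, while Rpl22l1, a variant of Rpl22, fell by 2.14 ± 0.21. Ribosomal protein genes have many processed copies in the genome, and their probe sets may read these too. The direct comparison of oocyte with 2-cell embryo thus passes over a low 1-cell level that the 1-cell arrays show.

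Mitochondrial and proteasome genes mostly fell. Of 83 tested genes of oxidative phosphorylation, 58 fell and 6 rose (69 and 1 after scaling to the hybridization controls), and the group median was -1.005, and their median intensity was 494 ± 57 in oocytes, 170.4 ± 31.7 at the 1-cell stage and 223 ± 18.6 at the 2-cell stage. Ndufc2, a subunit of respiratory complex I, fell by 3.41 ± 0.17, from 3029.6, 3251, 2739 and 3417 to 388, 226, 255 and 272 (adjusted p = 1.03e-10). Ndufa5 and Ndufb5, of the same complex, fell by 3.32 ± 0.25 and 3.08 ± 0.22, and Sdhd, of complex II, by 2.98. Ndufaf1, an assembly factor, was the member with the largest rise (1.79 ± 0.22, from 28.8 ± 6.32 to 131 ± 33.4).

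Among 103 tested genes of mitochondrial import and mitochondrial ribosomes, 56 fell and 20 rose (72 and 4 under the other scaling), with a median of -0.63. Mrpl11, a protein of the large mitochondrial subunit, fell by 3.20 ± 0.25, from 615 ± 84.9 to 60.7 ± 34.4. Tomm20, the import receptor of the outer membrane, went against the group, from 554, 453, 463 and 470.3 to 4966, 5458, 6935 and 4883, a rise of 3.48 ± 0.15 (adjusted p = 1.96e-11), with all 5 of its tested probe sets called higher. Its 1-cell level was 42.2 ± 11.2.

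Of 44 tested proteasome genes, 31 fell and 7 rose (35 and 0 after scaling to the hybridization controls), for a group median of -1.08, and the median intensity was 739 ± 75, 339.5 ± 49.9 and 322 ± 17.6 at the oocyte, 1-cell and 2-cell stage. Psma7, an alpha subunit of the core, fell by 3.55 ± 0.15, from 1325, 1463, 1220.4 and 1565 to 122, 103, 110.2 and 94.6 (adjusted p = 2.37e-11), although its 1-cell mean was still 1408 ± 96.6. Psmc4, an ATPase of the regulatory cap, fell by 2.43 ± 0.17. The activators Psme3 and Psme4 rose by 1.29 ± 0.18 and 1.13 ± 0.16, calls that were lost after scaling to the hybridization controls. Since all these stage values use the same oocyte and 2-cell arrays, they are set side by side and were not tested against each other.

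**Figure D3:**
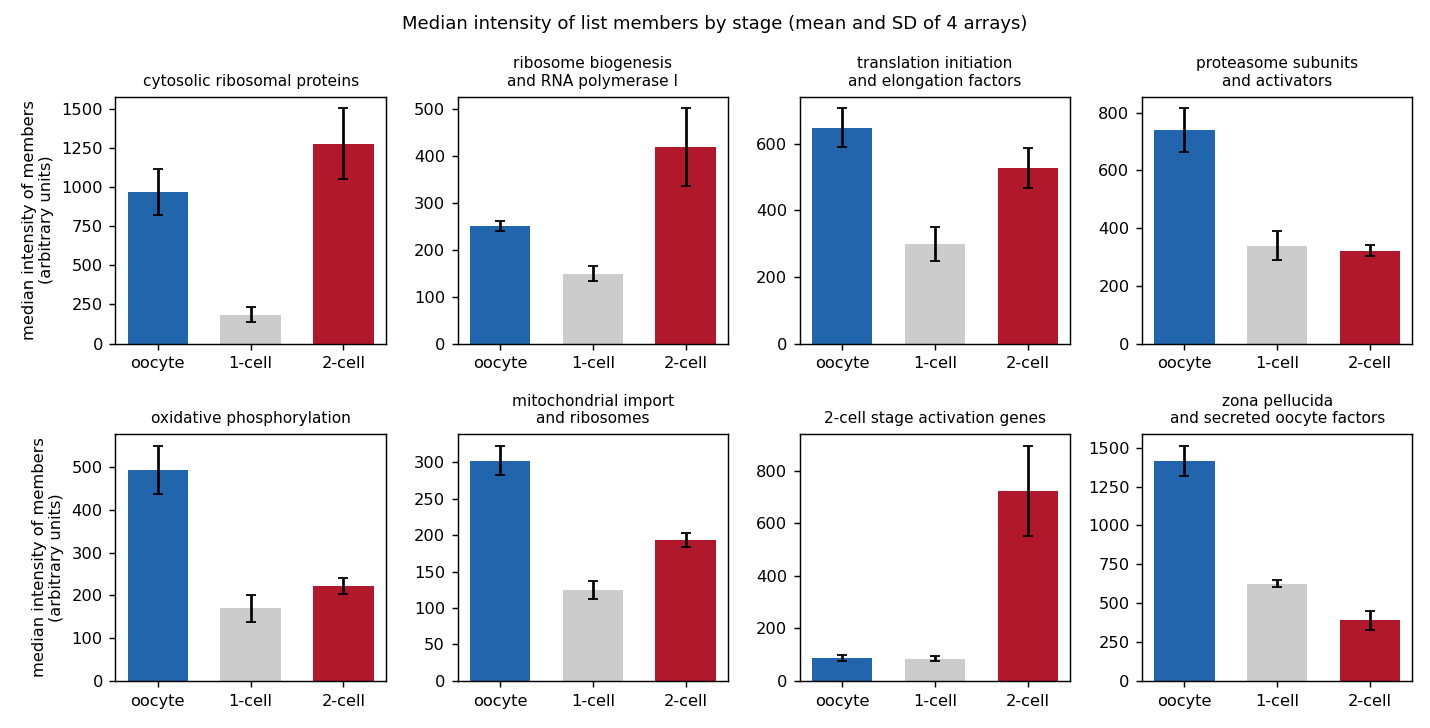
Median intensity of the tested members of 8 gene lists (y axis, arbitrary units) at the oocyte, 1-cell and 2-cell stage, as the mean of 4 arrays with SD bars. Ribosomal protein and ribosome biogenesis genes are low at the 1-cell stage and at or above the oocyte level at the 2-cell stage, while proteasome and oxidative phosphorylation genes stay near their 1-cell level.

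Under the authors' scaling, gene expression machinery was more evenly divided. Of 72 tested genes of RNA polymerase II and general transcription, 24 rose and 19 fell (median 0.069), or 33.3% and 26.4%, close to the shares over all genes. Under the other scaling 9 rose and 38 fell, with a median of -0.69 beside -0.67 over all probe sets. Elongation factors were among the rises: Ell2 rose from 32.4 ± 14.9 to 598 ± 153, or 3.80 ± 0.24, and Cdk9, the kinase that releases paused polymerase, by 2.89 ± 0.17. Gtf2b, the initiation factor TFIIB, fell by 2.34 ± 0.19, from 3279.7 ± 625 to 651 ± 207, and the Mediator subunit Med17 by 2.61 ± 0.17. Splicing genes gave 24 rises and 22 falls of 64 (median -0.079), or 11 and 36 under the other scaling. The serine and arginine-rich factors Srsf6 (2.51 ± 0.18), Srsf5 (2.36) and Srsf1 (1.76) rose, and Eftud2, a GTPase of the spliceosome, fell by 2.87 ± 0.50, or by 3.57 without 2-cell array 3. Nuclear transport gave 18 rises and 13 falls of 49 (median -0.055), or 7 and 29 under the other scaling, with import receptors such as Kpna1 (3.84 ± 0.17), Tnpo3 (3.61 ± 0.20) and Ipo7 (2.80 ± 0.25) among the rises and pore proteins such as Nup37 and Nup85 (-1.85 ± 0.19 and -1.68 ± 0.15) among the falls.

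Translation factors gave 21 rises and 19 falls of 55 (median 0.19), and 4 rises and 28 falls after scaling to the hybridization controls. Etf1, the release factor that reads stop codons, rose from 149 ± 26.5 to 1424 ± 245, or 3.15 ± 0.17, while Gspt2, a release-factor GTPase, fell by 3.23 ± 0.16. Eif4e3, a cap-binding relative of Eif4e, fell by 2.09 ± 0.17. Eif4e itself rose by 1.52 on its brightest probe set, while another of its probe sets was called lower (-0.46 ± 0.17). Of 20 tested aminoacyl-tRNA synthetase genes, 12 fell and 4 rose (median -0.77), and 15 fell and 0 rose under the other scaling. Lars, for leucine, fell by 1.53 ± 0.18.

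In glucose metabolism, changes went both ways. Of 31 tested genes 14 fell and 8 rose (median -0.25, or -0.057 without 2-cell array 3 and -0.15 without oocyte array 2), and 18 fell and 5 rose after scaling to the hybridization controls. The TCA enzymes Fh1, Sucla2 and Suclg1 fell by 2.19 ± 0.22, 2.02 ± 0.17 and 1.94 ± 0.20. Ldha, a lactate dehydrogenase subunit, rose from 62.6, 34.2, 24 and 39.9 to 370.5, 348, 267 and 276, or 2.68 ± 0.22 (adjusted p = 3.53e-08), while Ldhb, the other common subunit, fell by 1.33. Slc16a1, a lactate and pyruvate transporter, rose by 2.83 ± 0.22. For glucose transport, Slc2a3 rose by 2.03 and Slc2a1 fell by 1.19.

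Replication genes gave 19 falls and 9 rises of 52 (median -0.30), and 40 falls and 1 rise after scaling to the hybridization controls. Rpa1, the single-strand binding protein, fell by 2.30 ± 0.16, from 4393 ± 544 to 889 ± 199.6, and Rfc3, a clamp loader subunit, by 2.54 ± 0.30. Gmnn, geminin, the inhibitor of origin licensing, rose from 808, 1265, 882 and 1021 to 2715, 2613, 2934 and 2489, or 1.44 ± 0.15. Chaperones gave 11 rises and 11 falls of 33 (median 0.19), or 5 and 16 under the other scaling, with Dnajb9 highest at 4.25 ± 0.15 and Cct5, a subunit of the CCT chaperonin, lowest (-2.47 ± 0.17). Among endoplasmic reticulum stress and p53 target genes 15 rose and 5 fell of 35 (median 0.39, or 0.23 without oocyte array 4), and 8 rose and 12 fell after scaling to the hybridization controls. Sesn2, a stress-induced regulator of growth signalling, rose from 20.8 ± 13.3 to 543 ± 74.4, or 4.18 ± 0.28, and Trib3, a pseudokinase of the stress response, by 3.04 ± 0.20. Ddit3, the stress-induced factor CHOP, fell by 1.51 ± 0.17, and Atf4, an activator of such genes, had a log2 change of 0.10 and did not pass the test (adjusted p = 0.566).

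**Figure D4:**
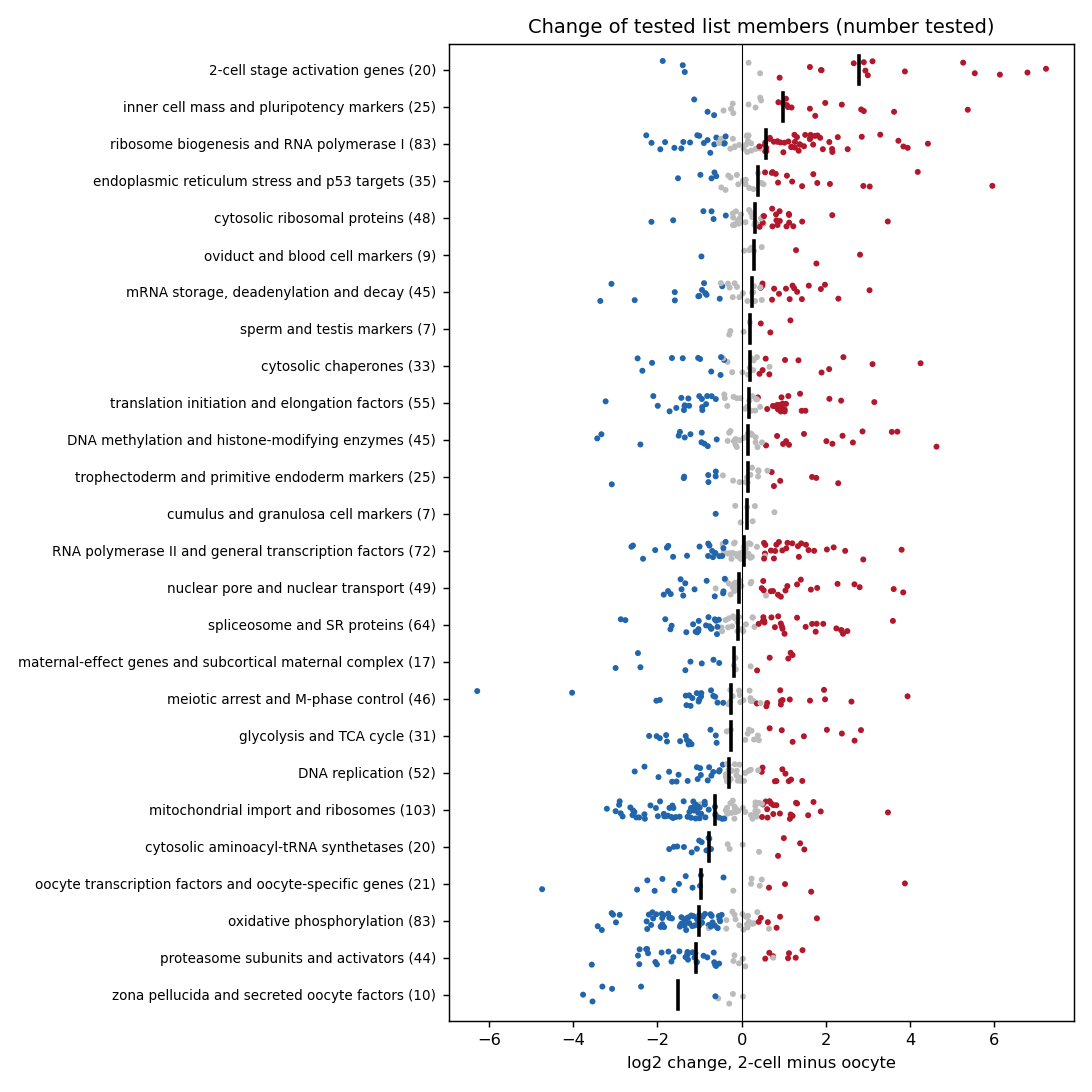
Log2 change from oocyte to 2-cell embryo (x axis) of each tested member of the 26 gene lists, ordered by median (black bars), with the number tested in brackets. Red points were called higher, blue points lower and grey points were not called; the medians run from -1.50 for zona pellucida and secreted factors to 2.78 for 2-cell stage activation genes, and most lists spread widely on both sides of 0.

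Some genes had probe sets that were called in opposite directions. Of 1389 genes with at least 2 called probe sets, 121 (8.71%) had calls in both directions, in 24 cases with both at least 2-fold, and 35 had them also after scaling to the hybridization controls. For Gid4, a subunit of an E3 ubiquitin ligase, a probe set fell by 2.74 ± 0.20, from 393 ± 54.1 to 49.3 ± 14.3, and another rose by 1.997 ± 0.18, from 42.3 ± 6.996 to 205 ± 30.4. For Srsf10, a splicing regulator, the probe sets gave a rise of 3.59 ± 0.15, to 1092 ± 112, and a fall of 0.95 ± 0.18, to 143 ± 26.04. Api5, an inhibitor of apoptosis, gave a rise of 2.30 ± 0.26 (adjusted p = 1.14e-06) and a fall of 1.70 ± 0.18 (adjusted p = 7.57e-07). Stag2, a cohesin subunit, rose by 3.44 ± 0.33 on a probe set and fell by 0.48 ± 0.18 on the other, a call that was lost when any of 5 single arrays was left out. Bzw2, Glce, Nus1 and Ndufaf4 made up the 8 widest gaps. Positions of the probes in the transcripts were not used here, so whether the probe sets read different isoforms, different 3' ends or another transcript was not tested.

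**Figure D5:**
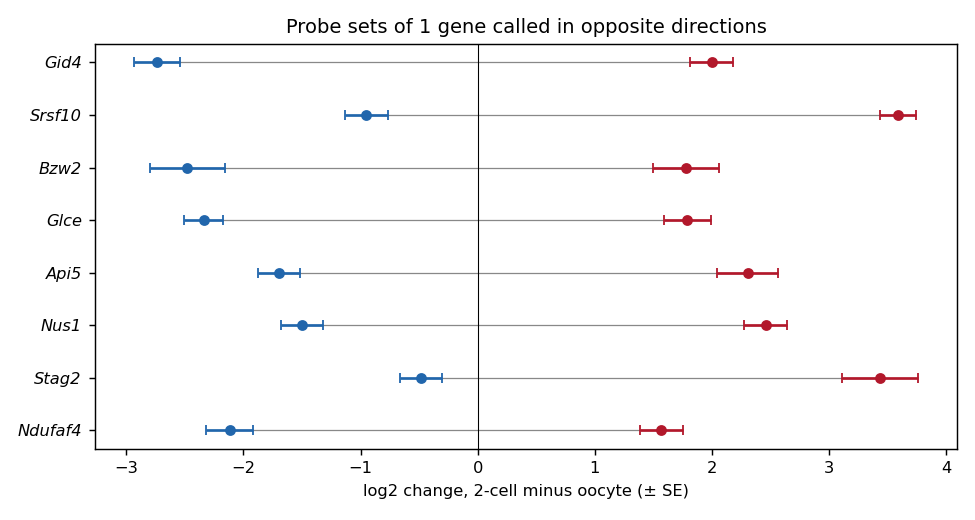
Log2 change from oocyte to 2-cell embryo (x axis, with SE bars) of the probe sets with opposite calls of 8 genes. For each gene a blue point left of 0 and a red point right of 0 are joined by a grey line; the gap is widest for Gid4.

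Markers of other cells were checked because cumulus cells, sperm or oviduct material can travel with oocytes and embryos. Of 7 tested cumulus and granulosa markers 0 rose and 1 fell, which was Inha (-0.61 ± 0.21, a call that was lost without oocyte array 1 or 2), with 0 and 3 after scaling to the hybridization controls. Summed intensities in this paragraph are over all probe sets of the listed genes on the array, tested or not. For the 16 cumulus and granulosa genes on the array the sum was 586 to 923 in oocytes and 594 to 795 at the 2-cell stage. Of 7 sperm and testis markers 3 rose, Tssk1 (1.16 ± 0.31), Ldhc (0.68 ± 0.26) and Odf2 (0.46 ± 0.16), with summed intensities of 1083 to 1768 and 1750.1 to 1975. Without oocyte array 3 or 4 or 2-cell array 2 only 1 of the 3 was called. In the fits with 1 array left out, Ldhc kept its call only without oocyte array 1 or 2-cell array 1. After scaling to the hybridization controls none of the 3 was called higher, and 0 of the 7 markers rose and 2 fell. The values of Ldhc and Odf2 overlapped between stages. Of 9 oviduct and blood cell markers 3 rose and 1 fell (2 and 1 under the other scaling), with log2 changes from -0.95 to 2.81. The summed intensities of this list were 1573 to 2528 in oocytes and 1472 to 2672 at the 2-cell stage. Ovgp1, the glycoprotein that the oviduct epithelium secretes, read 67.8, 79, 68.4 and 18.9 in oocytes and 765, 614, 381 and 219.6 at the 2-cell stage, a rise of 2.81 ± 0.36 (adjusted p = 5.31e-06). Ltf, lactoferrin, rose from 69.8, 75.1, 67.6 and 50.7 to 372, 306, 230.2 and 155, or 1.78 ± 0.23, and Lyz2, lysozyme of myeloid cells, by 1.29 ± 0.25. The other oviduct marker Pax8 had a log2 change of 0.063 and did not pass the test (adjusted p = 0.828). The part of other cells in the results was not tested.

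Most control probe sets for repeats and ribosomal RNA moved with stage as well. A probe set for the B2 family of short interspersed repeats (MURINE_B2) read 5993 ± 618 in oocytes and 11319 ± 1452 at the 2-cell stage, and one for B1 repeats 2389 ± 567 and 1102 ± 167 (each exact permutation p = 0.0286, the smallest possible, and 0.0449 after adjustment over 11 measures). Scaled to the hybridization controls, MURINE_B2 read 8025 ± 1109 and 8481 ± 1084 with overlap between the stages, and the B1 probe set 3166 ± 584 and 832 ± 168 without overlap. The rise of MURINE_B2 was thus about that of the controls, whereas B1 fell under both scalings. Another repeat probe set, MUR_b2, rose further, from 452 ± 120 to 1861 ± 525 as deposited. Scaled to the controls, MUR_b2 read 607 ± 166 in oocytes and 1466 ± 611 at the 2-cell stage, with overlap. Such repeats sit in the transcribed ends of many mRNAs, so the source of this signal was not tested. A probe set for 18S ribosomal RNA read 201 ± 33.2 in oocytes, 5006.5 ± 449 at the 1-cell stage and 865 ± 243 at the 2-cell stage. Another 18S probe set read 196 ± 57.6 in oocytes and 639 ± 116 at the 2-cell stage, without overlap. The 18S probe set for the 5' end read 365 ± 146 and 776 ± 270, with overlap (exact permutation p = 0.0571, 0.0698 after adjustment over 11 measures). Actb, a common reference gene, rose by 0.59 ± 0.17, from 587, 424, 534 and 655 to 823, 638, 919 and 952, with overlap, and changed sign to -0.23 under the other scaling.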

How the data were processed

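Deposited values are linear probe-set intensities of the MOE430A array, scaled by the authors to a common trimmed mean (150.1 on every array with 2% trimmed at each end, from the values). Software, background step and detection calls were not given in the sources used here; stages come from the titles.

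Intensities of the 8 arrays were transformed as log2(value + 12.15), the pooled median of 48.6 over all 20 arrays divided by 4. Probe sets above 32.9, the pooled 40th percentile, on at least 4 of the 8 arrays were tested (14509) with limma 3.58.1 in R 4.3.3 (lmFit, eBayes with trend, 6 residual degrees of freedom), two-sided, with Benjamini-Hochberg adjustment over all of them, and called under 0.05. Errors of changes are SE, those of intensities SD over 4 arrays. The number of arrays limits the precision (median SE 0.21). The brightest probe set stood for a gene. Gene names are from the platform annotation (20380 probe sets with 1 symbol, 691 with several, 1555 with none); 12369 of 12393 genes were found in the RefSeq table. No 2 arrays were identical (0 of 190 pairs). The procedure was tested on simulated data. Shares and promoter scans were computed with Python 3.11.15 and pandas 2.3.3.

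Members, gene lists and naming rules were chosen with earlier results of these data known. Named were the 15 largest rises and falls with an established symbol, no overlap and a higher mean above the median, up to 3 rises and 3 falls of each of 26 lists, stage markers and the 8 widest opposite probe sets. Other genes named were picked as list examples after their values were seen. Alternatives were quantile normalization, median centring, scaling to hybridization controls, other pseudocounts and filters, a 5-stage fit, no trend, array weights, a 2-fold treat threshold, a replicate block, gene means and each array left out.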

Additional observations from a re-analysis of the deposited data

Results flagged for a closer look

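In 16 of 388 groups of 4 arrays, over the genes the text names, a single array lay far from the other 3 by Dixon's criterion. Chance gives about 1 group in 20, and the share here was 4.12%. The 2-cell array 3 was such an array for 6 genes: Eftud2 at 388 (median 59.5), Hspa8 at 2571 (median 1396), Psme3 at 598 (median 389), Slc16a1 at 162 (median 215), Stat3 at 67.9 (median 85.05) and Zfp61 at 16.6 (median 4.35). The 2-cell array 1 was so for Nup37 at 679.9 (median 389), and the 2-cell array 4 for Gspt2 at 109 (median 81.4). Among oocytes, array 1 stood apart for Cpeb1 at 1179 (median 967), Crxos at 1.4 (median 14.9), Nus1 at 782 (median 712), Pabpc4 at 522 (median 463) and Tomm20 at 554 (median 467). Oocyte array 2 stood apart for Dppa4 at 261 (median 192), Tcl1b4 at 966 (median 529) and Tcstv3 at 73.7 (median 67.2). Values in brackets are the medians of the 4 arrays of that stage, all in intensity units.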

How the results depend on the processing

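The direct comparison kept its size but not its balance under other scalings. Quantile normalization called 3796 probe sets higher and 4048 lower, and centring on array medians 3262 and 4447. Scaling to the hybridization controls called 1451 higher and 6859 lower, so 17.5% of calls were higher, against 52.1% as reported, and moved the median of all tested probe sets to -0.67. A 2-fold threshold in limma's treat test left 2247 calls, 1241 higher and 1006 lower, and 8 genes with opposite probe sets. Other filters, pseudocounts of 3.04 and 48.6, a fit of all 5 stages, eBayes without trend and array weights kept both counts within 1.5 times. Leaving out 1 array at a time gave 7091 to 7650 calls, and the titles' numbers as a replicate block gave 7342, with 1 call of a named gene lost. Deviations of arrays of the same number correlated at -0.10 to 0.08 and those of different numbers at -0.11 to 0.14, and 1 of 4 numbers matched its own best. These values cannot tell whether arrays of the same number shared a collection or a processing batch, which the labels do not say.

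The group medians moved with the scaling and, for some lists, as far or farther with the filter. After scaling to the hybridization controls they were -2.32 for zona and secreted factors, -1.77 for oocyte-specific genes, -1.01 for maternal-effect genes, -0.57 for mRNA storage and decay, -1.05 for M-phase control, -0.62 for chromatin enzymes, 1.995 for 2-cell activation genes, 0.27 for pluripotency markers, -0.52 for trophectoderm and endoderm markers, -0.50 for ribosomal proteins, -0.23 for ribosome biogenesis, -0.69 for RNA polymerase II, -0.88 for spliceosome, -0.87 for nuclear transport, -0.61 for translation factors, -1.56 for tRNA synthetases, -1.90 for proteasome, -1.83 for oxidative phosphorylation, -1.43 for mitochondrial import and ribosomes, -1.03 for glycolysis and TCA cycle, -1.09 for DNA replication, -0.58 for chaperones, -0.43 for stress and p53 targets, -0.48 for cumulus markers, -0.52 for sperm markers and -0.37 for oviduct and blood markers. Centring on medians gave 0.083 for mRNA storage and decay, -0.410 for M-phase control, -0.021 for chromatin enzymes, -0.101 for RNA polymerase II, -0.249 for spliceosome, -0.226 for nuclear transport, 0.015 for translation factors, -1.252 for proteasome, -1.175 for oxidative phosphorylation, -0.800 for mitochondrial import and ribosomes, -0.425 for glycolysis and TCA cycle, -0.475 for DNA replication and 0.221 for stress and p53 targets. Quantile normalization gave 0.031 for nuclear transport and -0.72 for mitochondrial import and ribosomes. The larger pseudocount gave 2.22 for 2-cell activation genes and 0.63 for pluripotency markers. The stricter filter gave -2.39 for zona and secreted factors, -0.47 for glycolysis and TCA cycle, -0.32 for cumulus markers and 1.53 for oviduct and blood markers. The mean over all probe sets of a gene gave -0.428 for oocyte-specific genes, -0.070 for M-phase control, 0.073 for spliceosome, -0.902 for proteasome and -0.012 for glycolysis and TCA cycle. With 1 array left out at a time, the ranges were -0.24 to -0.11 for M-phase control, -0.34 to -0.057 for glycolysis and TCA cycle, 0.23 to 0.45 for stress and p53 targets and -0.078 to 0.20 for cumulus markers. Why these medians moved was not tested, except that scaling to the controls lowers every probe set of the 2-cell arrays by construction.

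Of 178 named called genes, 136 kept their call in every setting in which their probe set was tested. A probe set that the stricter filter removed was not counted as lost. The call was lost by 37 under the 2-fold threshold, 20 under scaling to the hybridization controls and 7 under a left-out array. Changes of sign were -0.092 for Ldhc, -0.36 for Odf2, -0.46 for Dppa3 and -0.23 for Actb under scaling to the hybridization controls, and 0.22 for Nus1 and 1.48 for Stag2 with the mean over probe sets. Signals near the filter intensity of 32.9 limit the precision of the largest rises, since the oocyte values of such genes lie below it.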

Other observations

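The median genomic span of the 100 genes with the largest rises was 14.7 kb and of the 100 with the largest falls 17.5 kb, beside 22.0 kb over all genes tested with a span in the RefSeq table. The values are a description without a test, and the ranking depends on the added constant. CpG-poor promoters, with an observed to expected ratio of 0.6 or less, were in the majority among oocyte-specific genes (2 of 19 were above it) and 2-cell activation genes (2 of 13 above it). In the 100 genes with the largest rises 56 of 82 promoters were above that ratio, beside 69.9% over all genes tested.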
